A study of Mus musculus with 8 samples.

Results

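The 31 genes described here carry out or control cholesterol synthesis, uptake, efflux and storage. They form a list of gene names. The rule that picks them sets no threshold on a measured value, but the list was drawn up with earlier results of these data known. Each matched 1 row of the 54532 genes in the deposited table. Of the 31, 30 reached the mean of 0.5 FPKM over the 8 libraries that was required for testing. FPKM, fragments scaled by gene length and library depth, is the unit in which the authors deposited the values. The exception was Fdps, the farnesyl diphosphate synthase gene.

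RNA came from mouse brown adipose tissue, the fat that burns lipid for heat, in 2 groups of 4 samples. WT samples carry the wild-type genotype and are labelled as controls. OGTBKO samples carry a brown adipocyte-specific knockout of Ogt, the gene of O-GlcNAc transferase, which adds a single sugar to proteins of the nucleus and cytoplasm. Per the labels, both groups were housed at 23 °C on standard chow, induced after 8 weeks with an agent spelled gomaxifen, and sampled 2 months later with the surrounding white fat removed. The labels name neither the promoter that drives the deletion nor the deleted exons or the animals' sex. They give adipocytes as the cell type, although the protocol describes whole tissue.

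Cells make cholesterol from acetyl-CoA. Enzymes of the mevalonate arm build isoprenoid units, and those of the sterol arm join them into squalene, close the rings and trim the product to cholesterol. When sterols in the endoplasmic reticulum run low, SCAP carries the transcription factor SREBP2 (gene Srebf2) to the Golgi for activation, and SREBP2 then switches on most synthesis genes together. INSIG proteins hold the complex back when sterols are plentiful. In the opposite state oxysterols activate the liver X receptors (LXRs), which raise the cholesterol exporters. Brown adipocytes also take up lipoproteins from blood, and macrophages in the same tissue express many of the efflux genes.

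Library totals, counted over genes, ran from 13393962 to 15897920 reads. Ogt itself measured 22.5 to 33.1 FPKM in WT and 10.7 to 14.5 FPKM in OGTBKO libraries, without overlap (log2 change -1.03). Defining markers of brown fat were present in all 8 libraries, but not at equal levels. Ucp1, the uncoupling protein that makes heat, fell from 2051 ± 485 to 1006 ± 79.3 FPKM without overlap (limma adjusted p = 0.0113), while Adipoq was not called (365 ± 35.7 and 440 ± 63.7 FPKM). Of all 13171 genes tested, limma called 15.6% in either direction, and voom, a fit to back-calculated reads, called 17.6%. Of 10 brown adipocyte markers 1 rose (Lipe) and 1 fell. Of 5 white adipocyte markers 2 rose by limma, Lep (log2 2.26, adjusted p = 0.0186) and Sncg (log2 1.40, adjusted p = 0.0275), and voom called 4 higher. The groups of Sncg overlapped, and the estimate of Agt lay below 0 (log2 -0.21). Their sum was 52.1 to 126 FPKM in WT and 156 to 203 FPKM in OGTBKO libraries. Retn had the largest part in it, at 26.1 to 91.3 and 73.7 to 145 FPKM, with overlap (limma adjusted p = 0.0634). Lipe, Lep, Sncg, Retn and Agt are named after their values were seen. The 4 called fat-cell markers, Ucp1, Lipe, Lep and Sncg, changed between the same groups as the members, and their part in those results was not tested. Skeletal muscle markers stood out in WT 1 (6 genes summing to 404 FPKM) and OGTBKO 1 (1207 FPKM), against 0.382 to 31.8 FPKM in the other 6 libraries. WT 3 stood apart by its share of mitochondrial reads, 39.4%, against 25.2% to 32.2% elsewhere. The labels do not say that each sample is a separate animal, so the p-values reflect sample spread alone, which may be technical. In bulk tissue, fewer cells of a type and less RNA per cell cannot be told apart.

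The promoters of 4 synthesis genes are shown first, because these 4 differed in their calls although their enzymes serve 1 pathway. Mvd and Idi1 act on successive intermediates and were called in opposite directions, Sc5d had the second-largest log2 difference among the members, and Hmgcs1, at the head of the pathway, was not called. Each RefSeq promoter (GRCm38.p6) runs from 250 bases before to 50 bases after the start site, in the gene's 5′ to 3′ direction. The windows are chr13:119690101-119690400 (plus strand) for Hmgcs1, chr8:122443373-122443672 (minus strand) for Mvd, chr13:8885356-8885655 (plus strand) for Idi1 and chr9:42264251-42264550 (minus strand) for Sc5d. Capitals mark the NF-Y box CCAAT, on either strand, and, in Hmgcs1, also the sterol regulatory element core TCACNCC.
Hmgcs1: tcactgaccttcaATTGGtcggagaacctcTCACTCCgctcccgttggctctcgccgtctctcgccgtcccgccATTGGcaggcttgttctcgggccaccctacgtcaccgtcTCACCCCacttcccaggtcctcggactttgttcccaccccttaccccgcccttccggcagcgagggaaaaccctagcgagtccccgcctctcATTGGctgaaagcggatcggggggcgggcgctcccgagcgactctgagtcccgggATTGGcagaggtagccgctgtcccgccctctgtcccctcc
Mvd: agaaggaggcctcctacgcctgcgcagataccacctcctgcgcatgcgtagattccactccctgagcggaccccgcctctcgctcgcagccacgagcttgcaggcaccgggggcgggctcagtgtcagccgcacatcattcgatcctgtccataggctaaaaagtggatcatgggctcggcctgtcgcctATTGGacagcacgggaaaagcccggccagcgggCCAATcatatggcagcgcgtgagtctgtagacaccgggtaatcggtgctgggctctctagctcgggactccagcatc
Idi1: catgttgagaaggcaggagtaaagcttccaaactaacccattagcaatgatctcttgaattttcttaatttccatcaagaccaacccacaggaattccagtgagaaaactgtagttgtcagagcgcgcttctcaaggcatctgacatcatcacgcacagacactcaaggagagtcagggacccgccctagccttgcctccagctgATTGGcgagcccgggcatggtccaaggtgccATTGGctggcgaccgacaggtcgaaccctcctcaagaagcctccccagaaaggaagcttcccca
Sc5d: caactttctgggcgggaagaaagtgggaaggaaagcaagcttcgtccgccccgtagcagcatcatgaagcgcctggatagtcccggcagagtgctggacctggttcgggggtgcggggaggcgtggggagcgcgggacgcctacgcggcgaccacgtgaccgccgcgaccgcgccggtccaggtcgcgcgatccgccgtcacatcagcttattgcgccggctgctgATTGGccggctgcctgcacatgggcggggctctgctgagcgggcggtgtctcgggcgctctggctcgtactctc
Mvd held 2 NF-Y boxes, 60 and 27 bases before the start site, and Idi1 also held 2, 45 and 14 bases before it. Sc5d held 1, while Hmgcs1 held 4 together with 2 sterol regulatory element cores. Among the 25 members with an entry (34 promoters), 19 had the NF-Y box in at least 1 promoter, Mvk with 5 copies in a single one. By promoter, 55.9% of the members' entries held it, against 37.4% of all 32851 promoters in the table. The core TCACNCC, searched on both strands like the others, lay in 26.5% of the members' promoters (9 of 34, from 7 members) and 15.6% of all. Overlapping promoters of Nr1h3 held the same match, which was counted in each. A direct repeat of AGGTCA after 4 bases, the form of element that LXRs bind, was found in 0 of the members' promoters and in 0.0152% of all. Only exact copies were counted, and just 5 of the 32851 promoters held one. A count of 0 in 34 promoters therefore tells nothing about LXR elements in these genes. Abcg1 had no promoter entry. These are matches of letters in a short window. NF-Y boxes occurred in the promoters of the rising Mvd and the falling Idi1, and their part in either change was not tested.

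Across the members, few changed. Of the 30 tested, 2 were called higher in OGTBKO tissue (Mvd and Abcg1) and 1 lower (Idi1) by limma at an adjusted p under 0.05. Of all 13171 genes tested 15.6% were called, 8.11% higher and 7.46% lower, so 3 of 30 members was not more than the background share. Their median log2 change was 0.03, beside 0.00 for all genes tested, and their median absolute change was 0.23, beside 0.25. WT and OGTBKO libraries were fully separate for 7 of the 30 members, where the background was 22.5% of genes. For 8 members the unadjusted 95% interval lay on one side of 0, namely Mvd, Idi1, Msmo1, Hsd17b7, Sc5d, Dhcr7, Stard4 and Abcg1, and the same held for 32.8% of all genes tested. The plot of changes by role shows 19 of 30 estimates above 0 and 11 below, where 49.8% of all genes tested lay above 0.

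**Figure D1:**
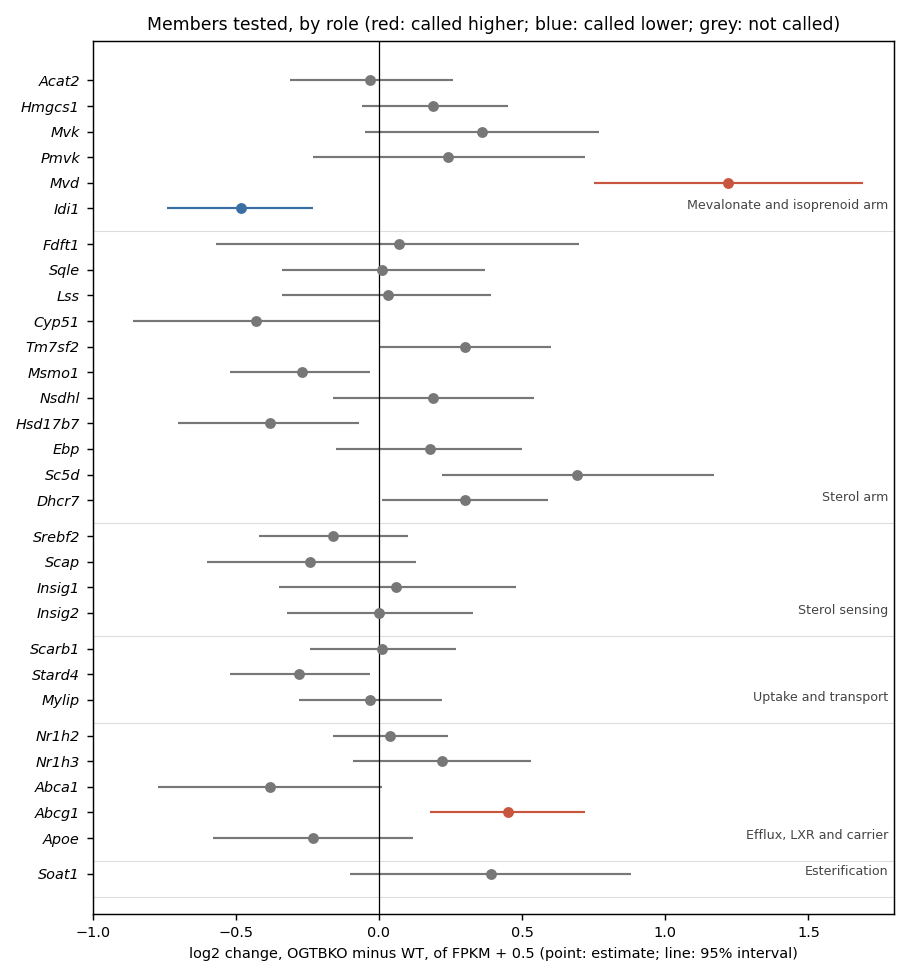
Log2 change (OGTBKO minus WT, of FPKM + 0.5, horizontal axis) of the 30 members tested, in rows by role, with points for the estimate and lines for the 95% interval of the limma fit. Mvd at 1.22 lies apart from all others, Abcg1 (0.45, red) and Idi1 (-0.48, blue) are the other members called, and the remaining 27 are grey.

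In the mevalonate arm, 1 of the 6 tested enzymes rose and 1 fell. Mvd, mevalonate diphosphate decarboxylase, makes isopentenyl diphosphate, the basic isoprenoid unit. Mvd (ENSMUSG00000006517, chromosome 8, 122433601 to 122443422, minus strand, mm10) measured 1.59, 0.639, 1.32 and 1.38 FPKM in WT 1 to WT 4. In OGTBKO 1 to OGTBKO 4 it measured 4.29, 3.21, 3.77 and 2.67 FPKM. Every OGTBKO library exceeded every WT library, and the lowest value, in WT 2, rested on 17 reads. Mean Mvd rose from 1.23 ± 0.413 to 3.48 ± 0.702 FPKM (SD, n = 4 in either group), a ratio of 2.82 and a log2 change of 1.22 ± 0.21 (SE; 95% interval 0.75 to 1.69; limma adjusted p = 0.00938). By exact permutation, two-sided, p was 0.0286, which is the minimum for this design. Only 1.38% of the genes tested had a larger log2 change. The call held in all 18 alternatives tried, with log2 values from 0.95 to 1.56, the lower end with the trend on GC content and length removed. A model on the opposite strand, Gm20388, spans the whole of Mvd and was listed at 0. Of 2 genes nearby on the same strand, looked at after their values were known, Rnf166 rose (log2 0.42, adjusted p = 0.0344) and Cyba was not called (log2 0.79, adjusted p = 0.110).

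Idi1, the isomerase that acts on the product of Mvd, went the other way. Idi1 (ENSMUSG00000058258, chromosome 13, 8885501 to 8892451, plus strand) measured 7.51, 6.18, 8.60 and 6.44 FPKM in WT libraries and 5.02, 4.87, 4.71 and 5.21 FPKM in OGTBKO libraries. The OGTBKO values were tightly grouped and all below the lowest WT value. The fall was from 7.18 ± 1.11 to 4.95 ± 0.210 FPKM, a log2 change of -0.48 ± 0.11 (95% interval -0.74 to -0.23; adjusted p = 0.0252). The call ended without OGTBKO 2 (adjusted p = 0.0593), OGTBKO 3 (0.0764) or OGTBKO 4 (0.0539). It also ended once the trend on GC content and length was taken out (log2 -0.33, adjusted p = 0.112). Processed pseudogenes and an opposite-strand model at least 95% identical to Idi1 covered 33.3% of its longest transcript, so its level is uncertain. That share is of bases and not of reads, and the size of the uncertainty is unknown. The ratio of Mvd to Idi1 within a library does not depend on scaling between libraries. It does not remove the trend on GC content, with Mvd at 59.0% and Idi1 at 41.9%. The ratio was 0.212, 0.103, 0.154 and 0.215 in WT and 0.855, 0.658, 0.800 and 0.512 in OGTBKO libraries. The groups of both genes were already separate, in opposite directions, so their ratio had to be separate and adds no test.

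The enzymes upstream of Mvd showed no call. Acat2, the cytosolic thiolase at the entry of the pathway, measured 58.6 to 79.0 FPKM in WT and 54.9 to 67.0 FPKM in OGTBKO libraries (log2 -0.03, 95% interval -0.31 to 0.26). Its paralogue Acat3 and the opposite-strand neighbour Tcp1 matched 65.6% of its longest transcript, and Tcp1 had its own level of 27.8 to 38.8 FPKM. Hmgcs1, the HMG-CoA synthase gene, was among the most abundant members at 43.7 to 57.3 FPKM in WT and 54.2 to 61.1 FPKM in OGTBKO libraries (log2 0.19, 95% interval -0.06 to 0.45, adjusted p = 0.273). Its groups overlapped. Mvk, mevalonate kinase, measured 3.56, 3.19, 5.30 and 3.27 FPKM in WT and 5.94, 3.64, 5.32 and 5.26 FPKM in OGTBKO libraries (log2 0.36, adjusted p = 0.200). WT 3 was the only WT library in the upper range of Mvk and OGTBKO 2 the only OGTBKO library in the lower. The next kinase, Pmvk, ranged from 7.71 to 10.8 FPKM in WT and from 7.18 to 15.2 FPKM in OGTBKO libraries (log2 0.24, 95% interval -0.23 to 0.72).

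Fdps, which joins isoprenoid units into farnesyl diphosphate, could not be assessed. Its deposited values were 0.0148 to 0.224 FPKM, from 1 to 14 reads per library, although the steps before and after it were well detected. Fdps shares 7512 bases of the same strand with the model Gm43738, itself listed at 0 in all 8 libraries. Processed pseudogenes also match part of Fdps. The labels do not say how reads that fall in more than 1 gene were counted.

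**Figure D2:**
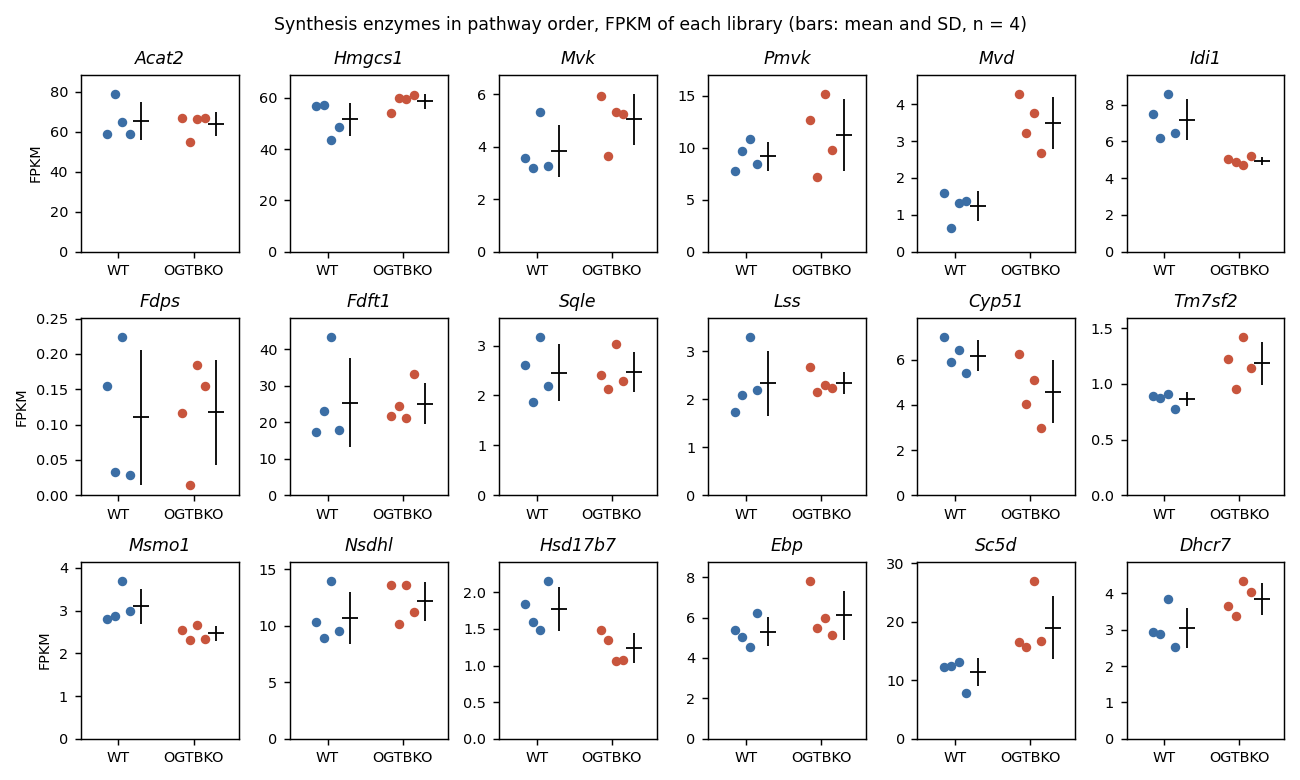
FPKM (vertical axes, each from 0) of the 18 synthesis enzymes in pathway order in each of the 4 WT (blue) and 4 OGTBKO (red) libraries, with the mean and SD beside each group. In the Mvd panel the OGTBKO libraries sit between 2.67 and 4.29 FPKM, above all WT libraries, in the Idi1 panel they sit below them, and in most other panels the groups overlap.

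In the sterol arm, 0 of 11 enzymes were called by limma, 4 had an unadjusted p under 0.05, and limma voom on back-calculated reads called 1 higher (Sc5d). Sc5d, the lathosterol desaturase near the end of the pathway, had the largest difference. Sc5d (ENSMUSG00000032018, chromosome 9, 42251595 to 42264256, minus strand) measured 12.3, 12.4, 13.1 and 7.84 FPKM in WT and 16.5, 15.6, 27.0 and 16.7 FPKM in OGTBKO libraries. The groups did not overlap, with WT 4 far below the other WT libraries and OGTBKO 3 far above the other OGTBKO libraries. The log2 difference was 0.69 ± 0.21 (95% interval 0.22 to 1.17), just outside the threshold at an adjusted p = 0.0540. It was 0.53 without WT 4 (adjusted p = 0.111) and 0.51 without OGTBKO 3 (0.117). Removal of the GC and length trend gave 0.87 (adjusted p = 0.0375). The GC content of Sc5d is 42.9%.

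Between Sc5d and squalene, members differed in both directions without reaching the threshold. Msmo1, the sterol methyl oxidase, measured 2.81 to 3.70 FPKM in WT and 2.31 to 2.67 FPKM in OGTBKO libraries (log2 -0.27, adjusted p = 0.116). Hsd17b7, the ketosteroid reductase of the same demethylation complex, measured 1.48 to 2.16 and 1.06 to 1.48 FPKM (log2 -0.38, adjusted p = 0.0954). Neither pair of groups overlapped, though those of Hsd17b7 met at 1.48 FPKM. Cyp51, the lanosterol demethylase, measured 7.01, 5.90, 6.42 and 5.43 FPKM in WT and 6.25, 4.06, 5.09 and 2.98 FPKM in OGTBKO libraries (log2 -0.43, adjusted p = 0.153). Tm7sf2, a sterol reductase that acts after Cyp51, stood at 0.776 to 0.912 FPKM in WT and 0.955 to 1.42 FPKM in OGTBKO libraries (log2 0.30, adjusted p = 0.153). Tm7sf2 shares 9356 bases of the same strand with Vps51, which was itself listed below 0.5 FPKM in all libraries. The ratio of Sc5d to Cyp51 within a library was 1.44 to 2.11 in WT and 2.64 to 5.60 in OGTBKO libraries, without overlap.

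Dhcr7, whose reductase catalyses a last step to cholesterol, measured 2.93, 2.89, 3.83 and 2.53 FPKM in WT and 3.64, 3.37, 4.35 and 4.03 FPKM in OGTBKO libraries (log2 0.30, adjusted p = 0.144). Only WT 3 reached the OGTBKO range, and without it Dhcr7 was called higher (log2 0.40, adjusted p = 0.0449). The squalene synthase gene Fdft1 showed the same library even more clearly, at 17.2, 23.1, 43.3 and 17.9 FPKM in WT and 21.7, 24.4, 21.1 and 33.2 FPKM in OGTBKO libraries (log2 0.07, 95% interval -0.57 to 0.70). Fdft1 overlaps 774 bases of the opposite-strand gene Ctsb, a lysosomal protease at 258 to 335 FPKM. The labels do not state whether counting used strand, so Fdft1 values may include Ctsb reads. The processed pseudogene Gm6781 and Ctsb, at least 95% identical where they match, covered 54.7% of the longest Fdft1 transcript. The squalene epoxidase gene Sqle (log2 0.01, 95% interval -0.34 to 0.37) and the cyclase gene Lss (log2 0.03, -0.34 to 0.39) had nearly equal means. For Nsdhl (log2 0.19) and the isomerase gene Ebp (log2 0.18) the groups overlapped as well.

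Many synthesis enzymes peaked in the same libraries. WT 3 had the highest WT value for 11 of the 17 tested, among them Mvk, Idi1, Fdft1, Sqle, Lss, Nsdhl and Dhcr7. Over all members WT 3 was the highest WT library in 15 of 30, against 32.1% of all genes tested, and OGTBKO 1 was highest of its group in 46.7%, against 30.5%. OGTBKO 2 was the lowest of its group in 43.3% of members, against 24.2% of all genes. The summed level of the 11 sterol arm enzymes was 59.7 to 97.8 FPKM in WT, with WT 3 at the top, and 72.0 to 87.6 FPKM in OGTBKO libraries. Fdft1, whose values may include Ctsb reads, made up 43.3 FPKM of the sum in WT 3. WT 3 also had the largest mitochondrial share and OGTBKO 1 the most muscle RNA. The deposited FPKM of WT 3 were scaled with a denominator of 0.790 times its library total, against 0.966 to 1.13 times elsewhere. A smaller denominator raises every FPKM of a library. The part of these features in the levels was not tested.

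Of the 4 sterol-sensing genes 0 were called by limma, 0 had an unadjusted p under 0.05 and voom called 0. Srebf2 measured 5.26 to 6.28 FPKM in WT and 4.05 to 5.61 FPKM in OGTBKO libraries (log2 -0.16, 95% interval -0.42 to 0.10). Its escort gene Scap measured 4.89 to 6.83 and 3.84 to 6.5 FPKM (log2 -0.24, 95% interval -0.60 to 0.13). Insig1 is both a brake on SREBP2 and one of its targets. It was by far the more abundant INSIG gene, at 50.5, 68.5, 89.5 and 73.0 FPKM in WT and 86.2, 58.2, 74.3 and 72.0 FPKM in OGTBKO libraries (log2 0.06, 95% interval -0.35 to 0.48). WT 1 was the lowest and WT 3 the highest of all 8, so the WT libraries spanned the whole OGTBKO range. Insig2, which is not driven by SREBP2 in the same way, measured 8.43 to 12.7 and 9.84 to 13.0 FPKM (log2 0.00, 95% interval -0.32 to 0.33). Insig1 exceeded Insig2 by 4.07 to 10.6 times in WT and by 5.38 to 8.76 times in OGTBKO libraries.

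For uptake and transport, 0 of 3 genes were called by limma, 1 had an unadjusted p under 0.05 and voom called 0. Scarb1, the receptor that takes cholesterol esters from high-density lipoprotein, measured 6.97 to 8.58 FPKM in WT and 6.92 to 9.05 FPKM in OGTBKO libraries (log2 0.01, 95% interval -0.24 to 0.27). Mylip encodes an LXR-induced ubiquitin ligase that sends lipoprotein receptors for degradation. It measured 6.87 to 8.21 and 6.5 to 8.28 FPKM (log2 -0.03, 95% interval -0.28 to 0.22). Under the reported scaling, the unadjusted 95% intervals of these 2 genes reached no further than 0.28 on the log2 scale in either direction. With the library total as denominator the estimates were 0.12 for Scarb1 and 0.08 for Mylip, and the intervals do not include that uncertainty. Stard4, a soluble sterol carrier and SREBP2 target, measured 2.04, 2.31, 2.52 and 2.19 FPKM in WT and 1.71, 2.06, 1.81 and 1.57 FPKM in OGTBKO libraries (log2 -0.28, 95% interval -0.52 to -0.03, adjusted p = 0.117). Its groups overlapped by a narrow margin, through WT 1 and OGTBKO 2.

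The efflux genes were divided. Abcg1, the transporter that loads cholesterol onto high-density lipoprotein, was called higher, whereas Abca1, which lipidates apolipoprotein A-I, had a difference below 0. Abcg1 (ENSMUSG00000024030, chromosome 17, 31057698 to 31115777, plus strand) measured 3.07, 3.85, 3.25 and 4.21 FPKM in WT and 4.37, 5.62, 5.10 and 5.25 FPKM in OGTBKO libraries. The groups were separate, though WT 4 and OGTBKO 1 lay close to each other. The rise was from 3.60 ± 0.529 to 5.09 ± 0.522 FPKM, a log2 change of 0.45 ± 0.12 (95% interval 0.18 to 0.72; adjusted p = 0.0366). The call ended without WT 1 (adjusted p = 0.0647), WT 2 (0.0739), WT 3 (0.0628), OGTBKO 2 (0.0901), OGTBKO 3 (0.0940) or OGTBKO 4 (0.0875). It also ended with the trend on GC content and length taken out (log2 0.38, adjusted p = 0.0766), with the library total as denominator (0.0660), with no filter on low values (0.0727) and with the replicate number as a block (0.0631). The estimate stayed between 0.38 and 0.55 over all alternatives.

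Abca1 measured 26.5, 33.5, 18.4 and 30.3 FPKM in WT and 21, 21.6, 18.3 and 20.4 FPKM in OGTBKO libraries (log2 -0.38, 95% interval -0.77 to 0.01, adjusted p = 0.161). WT 3 fell among the OGTBKO libraries and the other WT libraries all lay above them. Without WT 3 the gene was called lower (log2 -0.55, adjusted p = 0.0183). The ratio of Abcg1 to Abca1 was 0.115 to 0.176 in WT and 0.208 to 0.279 in OGTBKO libraries, without overlap and with WT 3 as the highest WT value. Both genes are classic LXR targets, and the receptors themselves were not called. Nr1h2 (LXR beta) had the narrowest interval of the members tested, at 11 to 12.8 FPKM in WT and 11.4 to 12.8 FPKM in OGTBKO libraries (log2 0.04, 95% interval -0.16 to 0.24). Nr1h3 (LXR alpha) measured 19.2 to 23.0 and 20.1 to 30.9 FPKM (log2 0.22, 95% interval -0.09 to 0.53), the highest value in OGTBKO 1.

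Apoe, the apolipoprotein made by macrophages and adipocytes, was the most abundant member. It measured 158, 119, 144 and 145 FPKM in WT and 155, 112, 122 and 97.6 FPKM in OGTBKO libraries (log2 -0.23, 95% interval -0.58 to 0.12, adjusted p = 0.345). With the GC and length trend removed it was called lower (log2 -0.49, adjusted p = 0.0483). Soat1, which esterifies cholesterol for storage, measured 1.22, 0.792, 0.859 and 1.42 FPKM in WT and 0.970, 1.74, 2.26 and 1.39 FPKM in OGTBKO libraries (log2 0.39, 95% interval -0.10 to 0.88). Its groups overlapped, and OGTBKO 1 was lower than both WT 1 and WT 4.

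**Figure D3:**
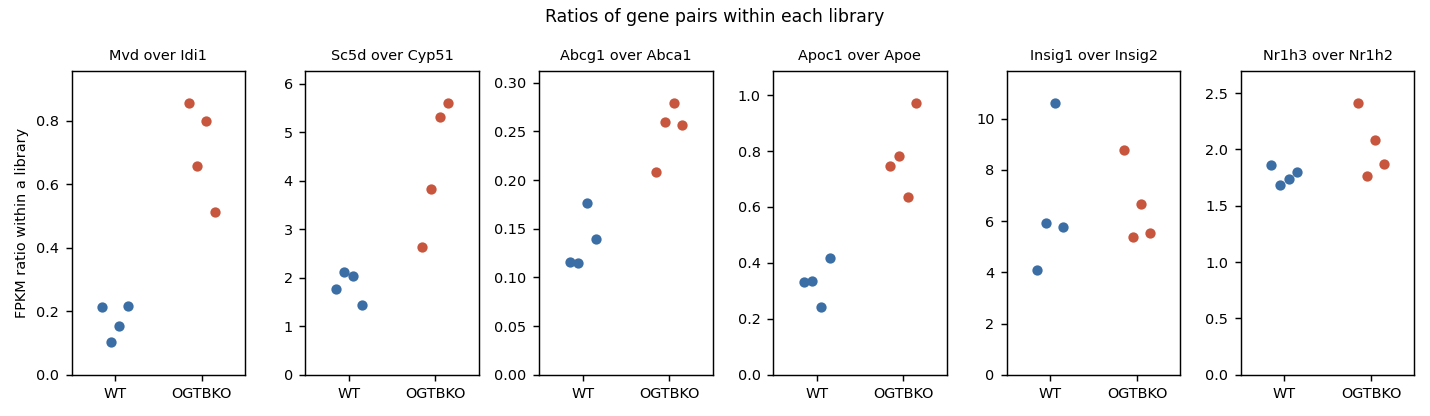
Ratio of 2 genes' FPKM within each library (vertical axes, each from 0) for 4 WT (blue) and 4 OGTBKO (red) libraries. The first 4 ratios do not overlap between the groups, with Mvd over Idi1 at most 0.215 in WT and at least 0.512 in OGTBKO libraries, while Insig1 over Insig2 and Nr1h3 over Nr1h2 overlap. The upper genes of the first 4 (Mvd, Sc5d, Abcg1 and Apoc1) were already separate by themselves. No share over other gene pairs was computed, so the ratios are descriptions only.

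Macrophages share the efflux genes, and their markers are given beside them. Of 12 macrophage markers 0 were called by limma, 2 had an unadjusted p under 0.05 and voom called 1 lower. Their summed level was 198 to 384 FPKM in WT and 269 to 594 FPKM in OGTBKO libraries, and none was at 0. That sum was carried by Lyz2, at 90.7 to 228 and 148 to 421 FPKM (adjusted p = 0.154). Without Lyz2 the other 11 markers summed to 107 to 156 FPKM in WT and 118 to 173 FPKM in OGTBKO libraries, which overlapped. The markers differed in direction, with 8 estimates above 0 and 4 below. Adgre1 measured 10.2 to 12.1 and 7.94 to 14.3 FPKM. Csf1r stood at 10.3 to 11.7 and 10.4 to 15.8 FPKM, and Cd68 at 10.8 to 17.6 and 13.9 to 39.7 FPKM (log2 0.78, adjusted p = 0.0974). Mrc1 was the marker that voom called lower (log2 -0.64, adjusted p = 0.0436), at 12.3 to 17.6 and 7.37 to 14.3 FPKM (limma log2 -0.62, adjusted p = 0.0631). The estimates of Fcgr1 (log2 -0.43) and C1qb (log2 -0.22) also lay below 0. Lyz2, Mrc1, Fcgr1 and C1qb are named after their values were seen. The part of macrophages in the members' levels was not tested.

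A wider list of sterol genes, also drawn up with earlier results known, was counted for comparison. Of 45, 39 were tested, 2 rose and 5 fell (17.9% called, against 15.6% of all genes), and their median log2 change was -0.10. Apoc1, an apolipoprotein gene beside Apoe, rose from 46.9 ± 11.7 to 94.1 ± 16.1 FPKM (log2 1.02 ± 0.19, adjusted p = 0.0124) and held in all 18 alternatives. The ratio of Apoc1 to Apoe was 0.241 to 0.417 in WT and 0.637 to 0.971 in OGTBKO libraries. Srebf1, the relative of Srebf2 that drives fatty acid synthesis, rose from 44.8 ± 5.89 to 69.0 ± 10.4 FPKM (log2 0.61, adjusted p = 0.0263). That call ended without WT 2 (adjusted p = 0.0506), WT 4 (0.0606), OGTBKO 1 (0.0543), OGTBKO 3 (0.0793) or OGTBKO 4 (0.0632), and with the trend removed (0.0516). The ratio of Srebf1 to Srebf2 was 6.93 to 9.36 in WT and 10.6 to 17.1 in OGTBKO libraries.

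Falls were called for genes that act around the pathway. Rnf139, a sterol-sensing ubiquitin ligase of the endoplasmic reticulum, fell from 7.42 ± 0.656 to 5.04 ± 0.387 FPKM (log2 -0.52, adjusted p = 0.0131). Erlin2, a partner in sterol-regulated degradation, fell from 14.7 ± 2.27 to 10.5 ± 0.592 FPKM (log2 -0.46, adjusted p = 0.0337). Ggps1, which makes geranylgeranyl diphosphate, fell from 7.13 ± 0.295 to 5.48 ± 0.377 FPKM (log2 -0.35, adjusted p = 0.0285). The lipoprotein receptor gene Vldlr fell from 37.5 ± 4.64 to 26.8 ± 3.94 FPKM (log2 -0.48, adjusted p = 0.0438). Scarb2, a lysosomal membrane protein, fell from 28.9 ± 6.63 to 18.6 ± 2.09 FPKM (log2 -0.60, adjusted p = 0.0441), although its groups overlapped. The call of Rnf139 held without any single library. Those of the other 4 each ended without WT 2, WT 4, OGTBKO 2, OGTBKO 3 or OGTBKO 4. Vldlr and Scarb2 also lost the call without WT 3, and Ggps1, Erlin2 and Vldlr without OGTBKO 1. In these cases the adjusted p ranged from 0.0507 (Ggps1 without WT 4) to 0.117 (Scarb2 without WT 2 and Vldlr without OGTBKO 3). None of the 5 remained called under removal of the trend or with the library total as denominator, where adjusted p ranged from 0.0650 to 0.371 and from 0.0802 to 0.201. The remaining groups of the list included intracellular sterol transport, with 0 of 8 called by limma, 1 with an unadjusted p under 0.05 and 0 called by voom.

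Base composition moved with the direction of change in the whole table, and its part in the members' changes was not tested beyond the fits with the trend removed. Among genes under the lower GC quartile of 44.7%, 84 were called higher and 581 lower, and above the upper quartile of 54.2%, 456 were called higher and 65 lower. Mvd, at 59.0% GC, lay above the upper quartile and Idi1, at 41.9%, under the lower. Abcg1 lay near the middle at 52.7%, where the median of all genes was 49.4%. Across the 30 members the rank correlation of GC content with the log2 change was 0.26, against 0.36 across all genes. These are descriptions across genes that share the same 8 libraries. Above the upper quartile, Mvd, Mvk, Pmvk, Nr1h2 and Nr1h3 had differences above 0, and Scap, Srebf2 and Apoe had differences below 0. Under the lower quartile, Idi1, Hsd17b7 and Stard4 had differences below 0, and Hmgcs1, Sc5d and Soat1 had differences above 0.

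**Figure D4:**
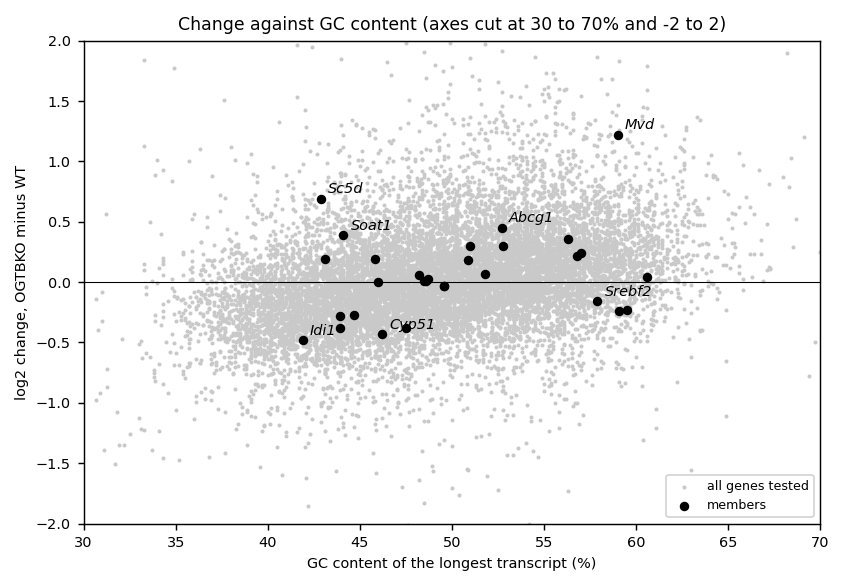
Log2 change (OGTBKO minus WT, vertical axis) against GC content of the longest transcript in percent (horizontal axis) for the genes tested (grey, those within 30 to 70% and -2 to 2) and the 30 members among them (black), with 7 members named. The grey cloud tilts upward with GC content. Mvd lies far above the cloud's centre at high GC content and Sc5d above it at low GC content.

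Of the 3 calls, only that of Mvd held in every setting tried. The plot of values by setting shows Abcg1 above 0 and Idi1 below 0 throughout, but called in some settings only. With both libraries rich in muscle RNA left out, Mvd stayed higher (log2 1.23, adjusted p = 0.0209) and so did Abcg1 (log2 0.45, adjusted p = 0.0482), while Idi1 was not called (log2 -0.47, adjusted p = 0.0674).

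**Figure D5:**
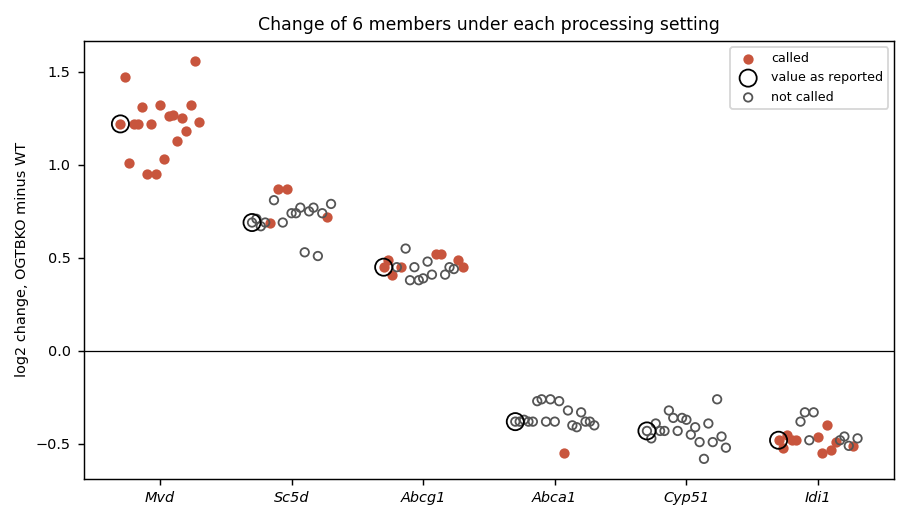
Log2 change (OGTBKO minus WT, vertical axis) of 6 members under each of 19 settings, the reported one circled; filled red points were called at an adjusted p under 0.05 and open points were not. All points of Mvd are filled, at 0.95 or more, while Sc5d, Abcg1, Abca1 and Idi1 have both kinds and Cyp51 has open points only.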

How the data were processed

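RNA sequencing of 8 brown adipose tissue samples was analysed from 1 table of FPKM that the authors deposited. Per the submitters' processing notes, HISAT2 2.0.5, featureCounts 1.5.0-p3 and the mm10 build were used. GENCODE M21 held 99.9% of the table's gene identifiers. FPKM times gene length gave whole reads (tolerance 0.001) in 100% of values, so reads were back-calculated; the deposited values were already scaled between libraries, with denominators 0.790 to 1.13 times the library totals. No value columns were left out.

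Values were tested as log2(FPKM + 0.5) for the 13171 genes with a mean of at least 0.5 FPKM, with limma 3.58.1 in R 4.3.3 (eBayes with trend, two-sided, no covariates, Benjamini-Hochberg over all genes tested); every adjusted p comes from it or from the changed setting named. The pseudocount understates the changes of low genes. Errors are SDs of 4 libraries, or SEs of the fit beside log2 changes. The fit was tested on simulated data. GC content is that of the longest GENCODE transcript; near-identical copies were sought with blastn (at least 95% identity over 100 bases). The alternatives were other pseudocounts and filters, the library total as denominator, removal of each library's GC and length trend by splines, a replicate block, leaving out single libraries and, added after the data were seen, limma voom and leaving out both libraries numbered 1. Planned count-model tests were not run, and limma voom on the back-calculated reads was added instead.

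The members, lists and tests were chosen with earlier results of these data known. Any member could be named, as could called genes of the other sterol list and the defining cell markers. Several further genes of the pathway are not reported here.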

Additional observations from a re-analysis of the deposited data

Results flagged for a closer look

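In each group of 4 libraries the most extreme value of every member was compared with the others by its gap over the group's range, against Dixon's 95% critical value. Of the 62 groups checked 3 were marked, where chance marks about 1 in 20. Acat2 in OGTBKO 2 was low at 54.9 FPKM, where the other 3 libraries of its group had 66.4 to 67.0 FPKM. Sc5d was low in WT 4 at 7.84 FPKM, where WT 1 to WT 3 had 12.3 to 13.1 FPKM. Sc5d in OGTBKO 3 was high at 27.0 FPKM, with 15.6 to 16.7 FPKM in the rest of that group.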

How the results depend on the processing

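Over 18 alternatives and 30 members, 514 of 540 values kept their side of the threshold, 19 lost the call, 7 gained one and 0 called values reversed. Of 2050 genes called in all (52.1% higher), 1229 were called with no filter on low values (737 higher, 492 lower), 1229 with the library total as denominator (79.7% higher), 888 with the replicate block (63.2% higher) and 516 with the replicate block and the GC and length trend removed (65.5% higher). Leaving out 1 library gave 694 (OGTBKO 3) to 2115. Members called higher numbered 2, and 1 with no filter, the library total or the replicate block (1 to 2 with a library left out). Members called lower numbered 1, and 0 with the library total, with the replicate block with or without trend removal, and with both libraries numbered 1 left out (0 to 2 with 1 left out). Synthesis enzymes called numbered 2, and 1 with the library total, the replicate block or both libraries numbered 1 left out (1 to 3 with 1 left out). Other members called numbered 1, and 0 with no filter, the library total and both fits with the replicate block (0 to 1 with 1 left out). With the trend removed the count stayed at 1 but the gene changed, from Abcg1 (adjusted p = 0.0766) to Apoe (0.0483). The wider list had 2 higher, and 1 with the trend removed, both fits with the replicate block and both libraries numbered 1 left out (1 to 2 with 1 left out). It had 5 lower, 2 with no filter and 0 with the library total, the trend removed and both fits with the replicate block (1 to 6 with 1 left out). The members' median log2 change of 0.03 became 0.14 with the library total, which moved the median of all genes to 0.09, and 0.01 to 0.11 with 1 library left out. The cause of these shifts was not tested. Correlations of deviations from the group means were -0.00696 to 0.22 for same-numbered samples and -0.167 to 0.125 for differently numbered ones. The labels do not say that replicate numbers pair the samples, and these correlations do not settle it. The count-model alternatives were not run, and limma voom was the only fit to back-calculated reads. Low members such as Mvd (from 17 reads) and Fdps (from 1 read) are limited by depth.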
